A study of Homo sapiens with 6 samples.

Results

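The 80 genes for proteins of the cytosolic ribosome were taken by name out of the 18678 genes in the deposited table: every RPL or RPS symbol that ends in a number, with or without a final A, X or L, plus RPLP0, RPLP1, RPLP2 and RPSA. They comprise 47 genes of the large subunit and 33 of the small subunit, and lie on 21 chromosomes. All 77 standard ribosomal protein genes that such a name can reach were found, 46 of the large and 31 of the small subunit, and 3 paralogs or copies came with them (RPL39L, RPS27L and RPS10L). FAU, which encodes RPS30, carries another name and is given separately. No expression filter was used to choose the genes, and none of the 80 was at 0 in any library.

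The study compared Cal27-shGRK2 cells, in which a short hairpin RNA targets the G protein-coupled receptor kinase GRK2, with Cal27 cells, and its title concerns how GRK2 bears on the epithelial state of head and neck squamous carcinomas. Cal27 is an established line of a squamous cell carcinoma of the tongue. The labels name 3 libraries per group, numbered 0 to 2, from total RNA of subconfluent cells in serum-containing medium, made with a stranded mRNA kit. They do not say whether the Cal27 cells carried a control hairpin, how many hairpins or clones were used, which promoter drove the hairpin, or whether each library had its own culture. The p-values therefore reflect the spread among these libraries alone, which may be technical.

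A ribosome joins a small subunit, which decodes the message, to a large subunit, which forms the peptide bonds, and each ribosomal protein is normally made in an amount matched to the others. Their messages are among the most abundant of any growing cell. Nearly all start with a pyrimidine tract, the 5′ TOP motif, through which the mTORC1 kinase controls their translation, and many of their introns host the small nucleolar RNAs (snoRNAs) that guide the modification of ribosomal RNA.

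The values are FPKM, fragments scaled by transcript length and library size, as the authors deposited them. The Cal27-shGRK2 columns 0 and 1 held identical values in all 18678 genes and were counted as 1 library, called here the shared library, which leaves 2 Cal27-shGRK2 and 3 Cal27 libraries. GRK2, listed as ADRBK1, had 17.3 and 16.6 FPKM in Cal27-shGRK2 libraries, against 55.3, 59.4 and 55.8 FPKM in Cal27 libraries, 3.35-fold lower. The FPKM summed over the table were 590163 and 615468 in Cal27-shGRK2 and 613330 to 644831 in Cal27, and the read depth is not given by the files. Of 13377 genes that averaged 1 FPKM or more, 3957 (29.6%) passed limma's test at a Benjamini-Hochberg adjusted p of 0.05, 1949 lower (14.6%) and 2008 higher (15.0%) in Cal27-shGRK2; scaled to a common FPKM total the split was 1575 lower and 2927 higher, and without the shared library 2600 genes passed. Averaged over the 5 libraries, all 8 epithelial markers were above 1 FPKM, with summed levels of 1524 to 1545 FPKM in Cal27-shGRK2 and 3287 to 3667 FPKM in Cal27. KRT14 passed 1 FPKM only through Cal27, at 0.235 and 0.160 FPKM in Cal27-shGRK2 and 19.3, 20.9 and 16.5 FPKM in Cal27. The 8 markers did not move one way. KRT5 averaged 756.5 FPKM in Cal27-shGRK2 and 2187 FPKM in Cal27, and KRT17 averaged 53.8 and 445.6 FPKM. KRT14, TP63, SFN and ITGB4 were lower in Cal27-shGRK2 too, and all of these passed limma's test. By contrast, EPCAM (190.6 and 139.6 FPKM) and CDH1 (102.3 and 68.6 FPKM) were higher in Cal27-shGRK2 than in Cal27 (limma, adjusted p = 9.2e-05 and 5.6e-06). Of the markers of other cell types in the table, the 4 of fibroblasts summed to 4.38 to 4.46 FPKM in Cal27-shGRK2 and 4.35 to 4.71 FPKM in Cal27. The blood marker CD14 was at 0.527 and 0.732 FPKM in Cal27-shGRK2 and 0.706 to 1.15 FPKM in Cal27, and the endothelial marker CDH5 at 6.80 to 7.01 FPKM in Cal27-shGRK2 and 3.50 to 3.97 FPKM in Cal27; none was at 0 in all libraries. The part of these marker changes in the results below was not tested.

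The start sites of 6 members are shown. All but RPS27L are either among those that fell most or the most abundant, and share a feature that RPS27L, the member that rose, lacks. RPS28 and RPS29, which fell, lack it too and are not shown, so these lines are chosen examples. The median log2 fold change was -0.11 both in the 46 members with the feature and in the 17 found to lack it. Each line gives 15 bases before and 15 bases from the annotated RefSeq start, on the gene's own strand, and so runs from the core promoter into the 5′ untranslated region of the first exon. Capitals mark the pyrimidine run that begins with a C at the start itself. In RPL39 the run is 19 bases long and continues past the 15 shown.
RPS27 (GRCh38.p14, plus strand, chr1:153990747-153990776): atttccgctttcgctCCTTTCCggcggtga
RPL12 (GRCh38.p14, minus strand, chr9:127451392-127451421): ccgcgcgatttccggCCTCTCggctttcgg
RPL41 (GRCh38.p14, plus strand, chr12:56116618-56116647): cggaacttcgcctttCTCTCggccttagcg
RPL39 (GRCh38.p14, minus strand, chrX:119791616-119791645): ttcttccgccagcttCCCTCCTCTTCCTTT
RPS3 (GRCh38.p14, plus strand, chr11:75399503-75399532): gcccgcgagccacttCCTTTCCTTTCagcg
RPS27L (GRCh38.p14, minus strand, chr15:63157463-63157492): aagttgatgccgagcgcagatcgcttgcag

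The ribosomal protein genes were expressed at high levels that spanned a wide range, with means of 47.9 to 4692 FPKM among the tested members and of 305.9 to 4692 FPKM among the standard ones. Averaged over the 5 libraries, 64 members had at least 1000 FPKM, 11 lay between 500 and 1000 FPKM, and 4 of the 79 tested members were below 500 FPKM. Of the 100 genes with the highest mean in the table, 64 were members. RPS3, which lines the channel where the message enters the small subunit, was the most abundant, with 4280 and 4875 FPKM in Cal27-shGRK2 and 4457, 5217 and 4629 FPKM in Cal27. RPL35, a protein near the exit of the peptide tunnel, followed with 3562 and 3818 FPKM in Cal27-shGRK2 and 3681, 4118 and 4273 FPKM in Cal27. Both groups overlapped for these 2 genes. The lowest tested members were the paralogs RPS27L and RPL39L and then RPL22, RPS25 and RPL23A. RPS10L, which GENCODE 29 lists as a processed pseudogene, was under the 1 FPKM filter and not tested, at 0.756 and 0.553 FPKM in Cal27-shGRK2 and 0.623, 0.424 and 0.569 FPKM in Cal27. Reads of ribosomal protein genes can be shared with their many pseudogenes and close paralogs, and the sources used here do not say how the authors' counting split them, so each level carries that uncertainty.

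Most members were slightly lower in Cal27-shGRK2, few by enough to pass the test. Of the 79 tested, 14 fell (17.7%, against 14.6% of all genes), 1 rose (against 15.0%), and 64 did not pass. At this scaling the share that fell is close to that of all genes and is no result about the family. The count depended on scaling: with median-of-ratios scaling 24 members fell (30.4%, against 15.4% of all genes), and after quantile normalization 5 fell (6.33%, against 15.8%) and 5 rose. The median log2 fold change was -0.11, against -0.01 over all genes tested, and the middle 50% of members lay between -0.15 and -0.07. A negative log2 fold change was found for 74 of 79 members and 50.9% of all genes, but for only 38 of 79 after quantile normalization, where the members' median was 0.00. Both Cal27-shGRK2 libraries lay below all 3 Cal27 libraries for 41 of 79 members (51.9%, against 27.4% of all genes), above them for 3 (RPS27L, RPL39L and RPL15, against 25.9%), and overlapped with them for 35. Among the 990 other genes that averaged 100 FPKM or more, 216 fell (21.8%), the median log2 fold change was -0.04 and 38.6% lay below all Cal27 libraries. Leaving out 1 Cal27 library changed the count of members that fell. It was 7 without replicate 2 (8.86%, against 11.9% of all genes). It was 13 without replicate 0 or 1 (16.5%, against 13.8% and 13.6% of all genes). Leaving out either Cal27-shGRK2 library leaves 1 in that group and also lowered the count. The members' median log2 fold change was then -0.07 without the shared library and -0.16 without replicate 2, against 0.02 and -0.03 over all genes. In bulk RNA, fewer cells that express a gene and less of its RNA per cell cannot be told apart.

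**Figure D1:**
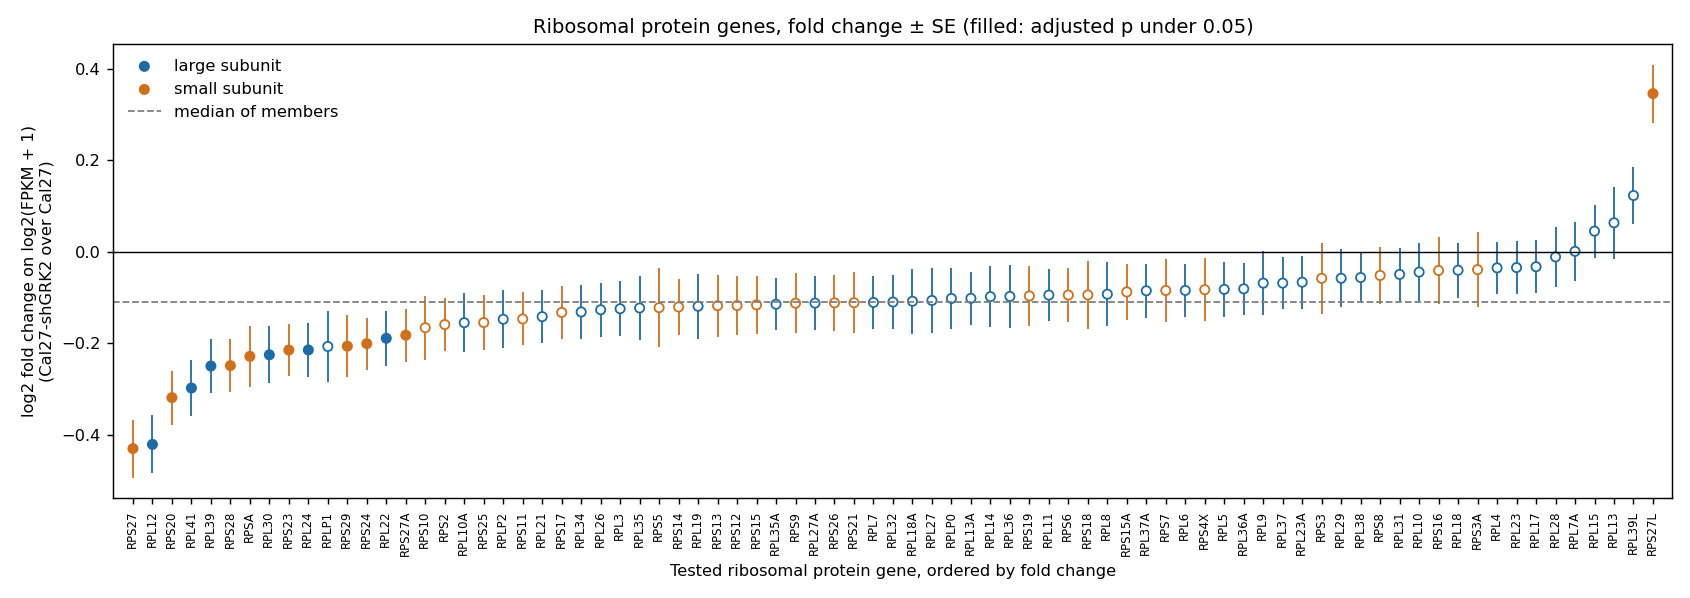
Log2 fold change on the log2(FPKM + 1) scale (Cal27-shGRK2 over Cal27, vertical axis, bars ± SE) of the 79 tested ribosomal protein genes, ordered by value, with large subunit genes in blue and small subunit genes in orange; filled points passed the adjusted p of 0.05 and the dashed line is the members' median of -0.11. The values form one narrow band just below 0, with RPS27 and RPL12 lowest and RPS27L alone at the top; after quantile normalization the band centres on 0.00.

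Members moved together between libraries of 1 group as well as between groups. In the shared Cal27-shGRK2 library 70 of 79 members were lower than in Cal27-shGRK2 replicate 2, as were 9391 of all 13377 genes. Of the 990 other genes that averaged 100 FPKM or more, 843 were lower there too, so this was not particular to members. Among the Cal27 libraries, replicate 1 had the highest value for 50 members and replicate 0 the lowest for 58. These 2 counts were not made for all genes. Summed over members, the level was 114635 and 122123 FPKM in Cal27-shGRK2 and 124446, 133765 and 129590 FPKM in Cal27, a mean 8.42% lower. As a share of all FPKM in the table, which removes a common scale, the members made up 19.4% and 19.8% in Cal27-shGRK2 and 20.3%, 20.7% and 20.8% in Cal27. These shares averaged 19.6% ± 0.296 in Cal27-shGRK2 (SD, n = 2) and 20.6% ± 0.286 in Cal27 (SD, n = 3), and the 2 groups did not overlap. After quantile normalization they did, with shares of 20.1% and 20.4% in Cal27-shGRK2 and 20.2%, 20.1% and 20.3% in Cal27.

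**Figure D2:**
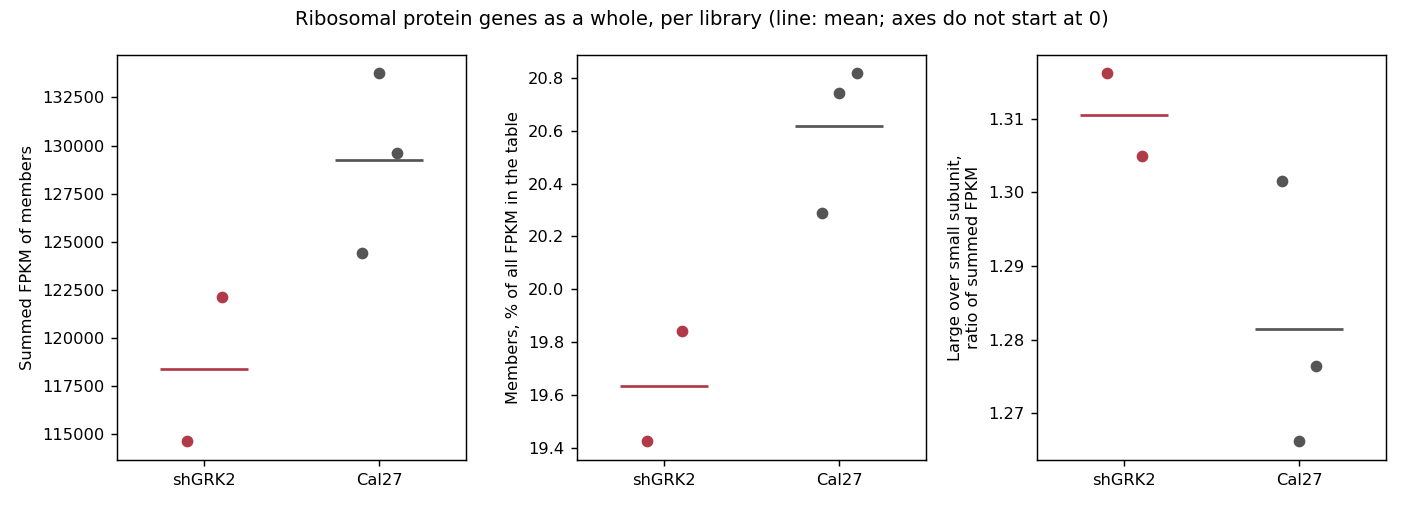
Summed FPKM of the ribosomal protein genes (left), their share of all FPKM in the table (middle) and the ratio of large to small subunit sums (right) in each library, Cal27-shGRK2 in red left of Cal27 in grey, with lines at the means; the axes do not start at 0. The share is 19.4% and 19.8% in Cal27-shGRK2 and 20.3% to 20.8% in Cal27, a separation that is absent after quantile normalization.

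Genes of both subunits were slightly lower in Cal27-shGRK2, with medians that went to 0.01 for the large and -0.01 for the small subunit after quantile normalization. Of the 47 large subunit genes, 6 fell (12.8%, against 14.6% of all genes) and none rose (against 15.0%), the median log2 fold change being -0.10. Of the 32 tested small subunit genes, 8 fell and 1 rose, set against the same shares of all genes, the median being -0.12. With median-of-ratios scaling 11 of the large and 13 of the small subunit fell; after quantile normalization 2 of the large fell and 4 rose, and 3 of the small fell and 1 rose. Without Cal27 replicate 2, 4 of the large and 3 of the small subunit fell, against 11.9% of all genes. Fewer of both subunits fell without the shared library, and fewer of the small subunit without Cal27-shGRK2 replicate 2. Each of these fits leaves 1 Cal27-shGRK2 library. Without the shared library the medians were -0.06 for the large and -0.07 for the small subunit (0.02 over all genes). Without replicate 2 they were -0.14 and -0.18 (-0.03 over all genes). Whether the subunits differ was not tested. In FPKM as deposited, the summed level of the large subunit was 7.51% lower and that of the small subunit 9.59% lower in Cal27-shGRK2. With a common FPKM total both sums stayed below all Cal27 libraries. After quantile normalization the large subunit sums were 70665 and 71556 FPKM in Cal27-shGRK2, and 70409, 69627 and 70231 FPKM in Cal27. The small subunit sums were then 53434 and 54644 FPKM in Cal27-shGRK2, and 54575, 54423 and 55234 FPKM in Cal27. The ratio of large to small subunit sums was 1.32 and 1.30 in Cal27-shGRK2 and 1.30, 1.27 and 1.28 in Cal27, with means of 1.31 ± 0.0080 (SD, n = 2) and 1.28 ± 0.018 (SD, n = 3). The lower Cal27-shGRK2 value lay just above the highest Cal27 value, so the groups were separate by a margin smaller than the spread within either.

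In the large subunit, the stalk and its base bring translation factors to the ribosome. RPL12, a protein of the stalk base, had 1560 and 1678 FPKM in Cal27-shGRK2, against 2052, 2267 and 2186 FPKM in Cal27. It fell by 0.42 ± 0.06 on the log2 scale (limma, adjusted p = 1.2e-04), or 25.3%, with no overlap between groups. RPLP1, a stalk protein that pairs with RPLP2, had 1141 and 1385 FPKM in Cal27-shGRK2 and 1452, 1507 and 1397 FPKM in Cal27. The groups did not overlap, but the log2 difference of -0.21 ± 0.08 missed the threshold (limma, adjusted p = 0.060). RPLP2 differed by -0.15 (adjusted p = 0.095 with limma) and RPLP0, which anchors both to the ribosome, by -0.10 (adjusted p = 0.28 with limma). RPL12 is thus the 1 gene of these 4 that passed, while RPLP0 overlapped between groups, at 1848 and 2021 FPKM in Cal27-shGRK2 and 1961, 2195 and 2073 FPKM in Cal27.

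The peptide tunnel and the bridges between subunits held 3 more of the large subunit genes that fell. RPL39, a small protein lining the tunnel, had 1708 and 1762 FPKM in Cal27-shGRK2 and 1979, 2132 and 2079 FPKM in Cal27, a log2 difference of -0.25 ± 0.06 (limma, adjusted p = 0.0048). Its paralog RPL39L, best known from the testis, had 93.6 and 102.6 FPKM in Cal27-shGRK2 and 88.8, 90.7 and 90.3 FPKM in Cal27. Both groups were separate, yet the log2 difference of 0.12 did not pass (limma, adjusted p = 0.16), while it did in 4 of 15 alternative settings. RPL41, the shortest ribosomal protein, with a coding sequence of 75 bases, had 2741 and 2882 FPKM in Cal27-shGRK2 and 3321, 3641 and 3410 FPKM in Cal27. It fell by 0.30 on the log2 scale (limma, adjusted p = 0.0018), but not after quantile normalization, where the difference was 0.015. RPL24, a bridge protein, had 1750 and 1845 FPKM in Cal27-shGRK2 and 2044, 2141 and 2073 FPKM in Cal27, a difference of -0.21 (limma, adjusted p = 0.012), whose adjusted p was 0.12 after quantile normalization. Of the other tunnel proteins among the most or least abundant members, RPL35 differed by -0.12 and RPL23A by -0.07, with adjusted p of 0.21 and 0.43 in limma. Their groups overlapped.

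RPL30 and RPL22 completed the list. RPL30, which in yeast represses the splicing of its own message, had 1337 and 1317 FPKM in Cal27-shGRK2 and 1460, 1564 and 1635 FPKM in Cal27, a log2 difference of -0.23 (limma, adjusted p = 0.013). RPL22, a protein that cells can do without and a known target of mutation in cancers, had 269.8 and 294.7 FPKM in Cal27-shGRK2 and 324.0, 318.0 and 323.0 FPKM in Cal27, a difference of -0.19 (limma, adjusted p = 0.027). Both calls were lost in 5 or more of 15 alternative settings. RPL5 and RPL11, which join 5S ribosomal RNA in a particle that can bind MDM2, differed by -0.08 and -0.09 and did not pass (limma, adjusted p = 0.34 and 0.23). RPL11 had 1781 and 1787 FPKM in Cal27-shGRK2 and 1870 to 1941 FPKM in Cal27, and RPL5 had 935.4 and 1022 FPKM in Cal27-shGRK2 and 1032 to 1040 FPKM in Cal27, so both were still separate between groups.

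**Figure D3:**
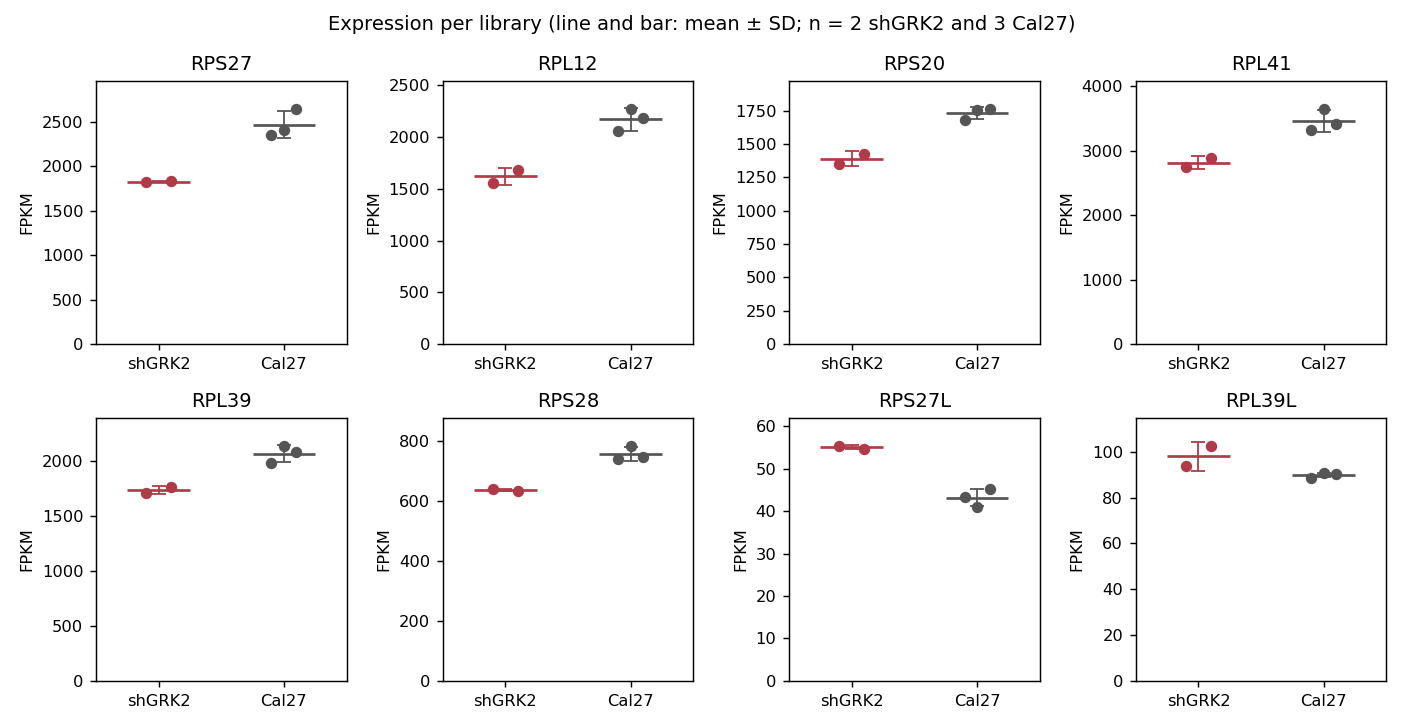
FPKM per library (vertical axis, from 0) of the 6 ribosomal protein genes that fell most by log2 fold change (RPS27, RPL12, RPS20, RPL41, RPL39 and RPS28) and of the paralogs RPS27L and RPL39L, Cal27-shGRK2 in red left of Cal27 in grey; lines and bars are mean ± SD (n = 2 and 3). The 6 genes are lower in both Cal27-shGRK2 libraries than in any Cal27 library, the RPL41 difference being 0.015 after quantile normalization, and RPS27L is higher in both, at 55.4 and 54.8 FPKM.

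In the small subunit, the paralogs RPS27 and RPS27L went opposite ways. RPS27, a zinc-binding protein of the subunit's platform side, had 1828 and 1832 FPKM in Cal27-shGRK2, against 2351, 2412 and 2643 FPKM in Cal27. It fell by 0.43 ± 0.06 on the log2 scale, or 25.9%, the largest change of any tested member (limma, adjusted p = 9.5e-05). RPS27L, a close paralog of the same coding length of 252 bases and a known target gene of p53, had 55.4 and 54.8 FPKM in Cal27-shGRK2 and 43.3, 41.1 and 45.2 FPKM in Cal27. It rose by 0.35 ± 0.06 on the log2 scale, or 27.6% (limma, adjusted p = 6.8e-04), and was the only member to pass in that direction. As a share of the summed FPKM of the pair, RPS27L made up 2.94% and 2.90% in Cal27-shGRK2 and 1.81%, 1.67% and 1.68% in Cal27. For RPL39L the share of its pair with RPL39 was 5.20% and 5.50% in Cal27-shGRK2 and 4.29%, 4.08% and 4.16% in Cal27. In both pairs the rarer paralog took a larger share in each Cal27-shGRK2 library, while the common form stayed far above it.

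The authors' deposited table marks 3 members as significant, RPS27, RPL12 and RPS27L, where it marks 15.4% of all its genes. In the authors' deposited table the log2 fold change is -0.38 for RPS27 (q = 0.0040), -0.40 for RPL12 (q = 0.046) and 0.39 for RPS27L (q = 0.034). For 74 members the authors' deposited table gives a negative log2 fold change.

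Proteins at the message channel and decoding site of the small subunit gave mixed results. RPS28, near the exit of the channel, had 637.9 and 632.8 FPKM in Cal27-shGRK2 and 737.5, 782.5 and 746.3 FPKM in Cal27, a log2 difference of -0.25 ± 0.06 (limma, adjusted p = 0.0043). RPS23, a protein of the decoding centre, had 1882 and 1906 FPKM in Cal27-shGRK2 and 2132, 2218 and 2247 FPKM in Cal27, a difference of -0.21 (limma, adjusted p = 0.010). RPSA, once described as a laminin receptor precursor, had 1648 and 1853 FPKM in Cal27-shGRK2 and 1948, 2136 and 2063 FPKM in Cal27, a difference of -0.23 (limma, adjusted p = 0.017). These 3 fell, and none overlapped between groups. RPS2 at the channel entry, the third most abundant member, had 3437 and 3570 FPKM in Cal27-shGRK2 and 3807, 4058 and 3874 FPKM in Cal27. The groups were separate, but the difference of -0.16 missed the threshold (limma, adjusted p = 0.054). RPS3 differed by -0.06 (limma, adjusted p = 0.62), and its sign turned without the shared Cal27-shGRK2 library (0.035) or without Cal27 replicate 1 (0.0083).

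On the head of the small subunit, RPS20 had 1349 and 1429 FPKM in Cal27-shGRK2 and 1681, 1755 and 1761 FPKM in Cal27. It fell by 0.32 ± 0.06 on the log2 scale (limma, adjusted p = 7.1e-04), or 19.8%. RPS29, a zinc-binding head protein, had 2441 and 2443 FPKM in Cal27-shGRK2 and 2578, 3003 and 2891 FPKM in Cal27, a difference of -0.21 (limma, adjusted p = 0.032). Both were separate between groups, and the RPS29 call held in only 6 of 15 alternative settings. RPS18, also in the head, had 2406 and 2793 FPKM in Cal27-shGRK2 and 2579, 2911 and 2824 FPKM in Cal27, groups that overlapped (-0.09, adjusted p = 0.38 with limma). The sign of RPS18 turned without the shared Cal27-shGRK2 library, to 0.013.

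Of the remaining small subunit genes, RPS24, one of the genes mutated in Diamond-Blackfan anaemia, had 2017 and 1984 FPKM in Cal27-shGRK2 and 2322, 2245 and 2332 FPKM in Cal27 (-0.20, adjusted p = 0.015 with limma). RPS27A, made as a fusion with ubiquitin, had 1133 and 1166 FPKM in Cal27-shGRK2 and 1348, 1276 and 1292 FPKM in Cal27 (-0.18, adjusted p = 0.027 with limma). Both fell, with no overlap, and each call was lost in at least 6 of 15 alternative settings. RPS6, the substrate of the S6 kinases downstream of mTORC1, had 1202 and 1274 FPKM in Cal27-shGRK2 and 1312, 1347 and 1306 FPKM in Cal27. Its groups were separate, but the difference of -0.09 ± 0.06 did not pass (limma, adjusted p = 0.25). RPS25, needed for initiation at some viral internal entry sites, had 391.2 and 419.4 FPKM in Cal27-shGRK2 and 440.6, 454.0 and 458.8 FPKM in Cal27, likewise separate and likewise not past the threshold (-0.15, adjusted p = 0.064 with limma).

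Of the 15 members that passed, 6 did so in all 15 alternative settings: RPS27, RPL12, RPS20, RPL39 and RPS28 as lower and RPS27L as higher. RPL41 passed in 14, RPL24 in 13, RPS23 in 12, RPSA in 11 and RPL30 in 10. The other 4 passed in 6 to 9 settings. Those 4 are RPS24, RPL22, RPS27A and RPS29. All 8 of RPSA, RPL30, RPS23, RPL24 and these 4 were lost without the shared Cal27-shGRK2 library, and all but RPL24 without Cal27 replicate 2. Without Cal27-shGRK2 replicate 2 RPL30, RPS24, RPS27A and RPS29 were lost, without Cal27 replicate 0 RPL22 and RPS27A, and without Cal27 replicate 1 RPS29.

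The short genes of the family held most of the members that fell. Ordered by coding length, the shortest 26 (75 to 396 bases) included 8 that fell (30.8%, against 14.6% of all genes) and 1 that rose. Their median log2 fold change was -0.12. Both Cal27-shGRK2 libraries lay below all Cal27 libraries for 19 of them (73.1%, against 27.4% of all genes). That share was 38.6% among the 990 other genes with at least 100 FPKM. The middle 26 (399 to 552 bases) included 5 that fell (19.2%), with a median of -0.11 and 13 separate in that direction. The longest 27 (564 to 1281 bases) included 1 that fell (3.70%), RPSA, with a median of -0.08 and 9 separate in that direction (33.3%). Across the 79 genes Spearman's rho between coding length and log2 fold change was 0.27, against 0.15 over the 11335 tested genes with a coding length and 0.18 over the 953 other genes with at least 100 FPKM. Genes are not independent replicates and these are descriptions.

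**Figure D4:**
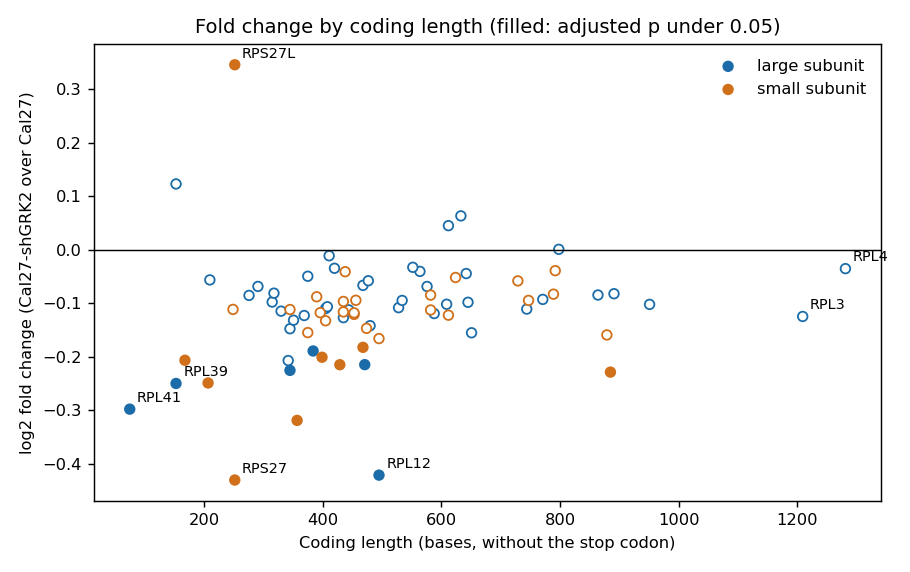
Log2 fold change (Cal27-shGRK2 over Cal27, vertical axis) against coding length in bases (horizontal axis) for the 79 tested ribosomal protein genes, large subunit in blue and small subunit in orange, filled where the adjusted p was under 0.05. Filled points below 0 lie mostly at short coding lengths, 8 of them among the 26 shortest genes (30.8%) and 1 among the 27 longest (3.70%). Of all genes tested 14.6% fell.

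Members with and without the start-site feature printed above had similar medians. In the RefSeq promoter table, 63 members had a window around their start. A run of a C followed by at least 4 further C or T letters, read on the gene's own strand only, began at the start itself in 46 of them (73.0%), against 5.14% of all 27305 genes in that table. Within 10 bases of the start it was found in 57 members (90.5%) and in 38.4% of all genes. Of the 46 members with the run at the start, 10 fell (21.7%, against 14.6% of all genes) and none rose (against 15.0%). Their median log2 fold change was -0.11. Of the 17 with a window but no such run, RPS28 and RPS29 fell (11.8%) and RPS27L rose (5.88%), with a median of -0.11. Of the 16 tested members with no window, 2 fell (12.5%). A match of letters is a description and no evidence that the motif acts. Members with and without a snoRNA gene inside were alike too, with a median log2 fold change of -0.11 in both. Of the 28 with one, 5 fell (17.9%), and of the 51 without, 9 fell (17.6%), shares close to the 14.6% of all genes.

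Ribosomal proteins and paralogs that the naming rule leaves out had a median log2 fold change of -0.09. Of 7 such genes, 1 fell (14.3%, against 14.6% of all genes), a share that is no result about these genes. It was RPL22L1, the paralog of RPL22, with 127.4 and 144.7 FPKM in Cal27-shGRK2 and 166.7, 154.3 and 166.3 FPKM in Cal27 (-0.26, adjusted p = 0.0098 with limma). That call did not hold without the shared Cal27-shGRK2 library. RPL22L1 made up 32.1% and 32.9% of its pair with RPL22 in Cal27-shGRK2 and 34.0%, 32.7% and 34.0% in Cal27, so the groups overlapped in that share. FAU (-0.09) and GNB2L1, which encodes the scaffold RACK1 (0.02), did not pass, with adjusted p of 0.32 and 0.83 in limma.

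Many genes that assemble ribosomes fell. Of 40 tested genes for ribosome assembly and the nucleolus, 16 fell (40.0%, against 14.6% of all genes) and none rose, with a median log2 fold change of -0.16. GNL3, the nucleolar GTPase nucleostemin, changed most, with 61.6 and 64.8 FPKM in Cal27-shGRK2 and 90.0, 79.5 and 88.3 FPKM in Cal27 (-0.43, adjusted p = 1.5e-04 with limma). Chosen after their values were seen, WDR12 of the PeBoW assembly complex differed by -0.41 (limma, adjusted p = 9.9e-04) and DKC1, the pseudouridine synthase dyskerin, by -0.27 (limma, adjusted p = 0.0037). The count fell to 9 without Cal27 replicate 2, where 11.9% of all genes fell. It was 9 with a common FPKM total (10.9% of all genes) and 8 without trend and robust moderation (11.9%). Fewer also fell when either Cal27-shGRK2 library was left out, which leaves 1 in that group. The median log2 fold change was then -0.14 without the shared library and -0.19 without replicate 2, against 0.02 and -0.03 over all genes. No gene of the list rose in any of these settings. The call on GNL3 held in all 15 alternative settings. Whether assembly genes and ribosomal protein genes differ in this was not tested.

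Of 12 noncoding snoRNA host genes, whose introns carry the guide RNAs, 9 fell (against 14.6% of all genes) and none rose (against 15.0%), with a median log2 fold change of -0.23. EPB41L4A-AS1 had 11.0 and 13.7 FPKM in Cal27-shGRK2 and 16.8, 17.3 and 16.6 FPKM in Cal27 (-0.43, adjusted p = 0.0011 with limma). It is antisense to another gene, and the sources used here do not say whether counting used the strand. SNHG7, named after its values were seen, had 54.5 and 54.5 FPKM in Cal27-shGRK2 and 71.0, 69.1 and 72.9 FPKM in Cal27 (-0.37, adjusted p = 1.9e-04 with limma). The count was 4 without the shared Cal27-shGRK2 library or without Cal27 replicate 2, 6 without Cal27-shGRK2 replicate 2, and 5 with a common FPKM total or without trend and robust moderation.

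The translation factors moved in both directions. Of 30 initiation factors 7 fell (23.3%, against 14.6% of all genes) and 2 rose (6.67%, against 15.0%), and the median log2 fold change was -0.04 (0.01 with a common FPKM total). EIF4G1, the scaffold of the cap-binding complex, had 215.9 and 213.3 FPKM in Cal27-shGRK2 and 278.4, 304.7 and 258.6 FPKM in Cal27 (-0.38, adjusted p = 5.8e-04 with limma). EIF6, which keeps free large subunits from joining small ones, had 348.4 and 382.7 FPKM in Cal27-shGRK2 and 272.6, 309.6 and 277.9 FPKM in Cal27 (0.35, adjusted p = 0.0012 with limma). Both EIF4G1 and EIF6 passed in all 15 alternative settings. The count that fell was 3 without Cal27 replicate 2 (against 11.9% of all genes) and 4 without Cal27 replicate 0 (against 13.8%). With a common FPKM total 3 fell and 4 rose, against 10.9% and 20.2% of all genes. The counts that fell in these settings are close to the shares of all genes and are no result about these factors. Fewer also fell when either Cal27-shGRK2 library was left out, which leaves 1 in that group. The median was then 0.01 without the shared library and -0.08 without replicate 2, against 0.02 and -0.03 over all genes. Of 12 tested elongation and termination factors none passed in limma, with 2 at an unadjusted p under 0.05 and a median of -0.05; with a common FPKM total 2 rose and the median was 0.01.

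Of 19 other genes known for 5′ TOP messages, with a median of -0.06 (0.04 after quantile normalization), 1 fell: EIF3E, a subunit of the initiation factor that binds the small subunit, with 226.0 and 253.0 FPKM in Cal27-shGRK2 and 279.5, 265.5 and 272.6 FPKM in Cal27 (-0.19, adjusted p = 0.037 with limma). EIF3E is also among the initiation factors above. The share of all genes that fell was 14.6%. In this list 5 genes fell with median-of-ratios scaling and with a further Cal27-shGRK2 library implied by the authors' mean for that group, and none without the shared Cal27-shGRK2 library, without Cal27 replicate 0 or without Cal27 replicate 2. Of 17 genes that regulate mTORC1 or TOP messages, 1 fell (5.88%, against 14.6% of all genes), 2 rose (11.8%, against 15.0%) and the median was 0.08. CNBP, a nucleic acid-binding protein that binds TOP messages, had 228.0 and 246.0 FPKM in Cal27-shGRK2 and 276.0, 265.1 and 273.3 FPKM in Cal27 (-0.20, adjusted p = 0.022 with limma). EIF4EBP2, a repressor of the cap-binding protein that mTORC1 inactivates, had 25.9 and 28.1 FPKM in Cal27-shGRK2 and 22.0, 23.2 and 21.7 FPKM in Cal27 (0.27, adjusted p = 0.0079 with limma). CNBP did not pass without the shared Cal27-shGRK2 library, Cal27 replicate 0 or Cal27 replicate 2. The count that rose was 0 without Cal27-shGRK2 replicate 2, 1 without Cal27 replicate 0 or 2, 4 without Cal27 replicate 1, and 8 with a common FPKM total.

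**Figure D5:**
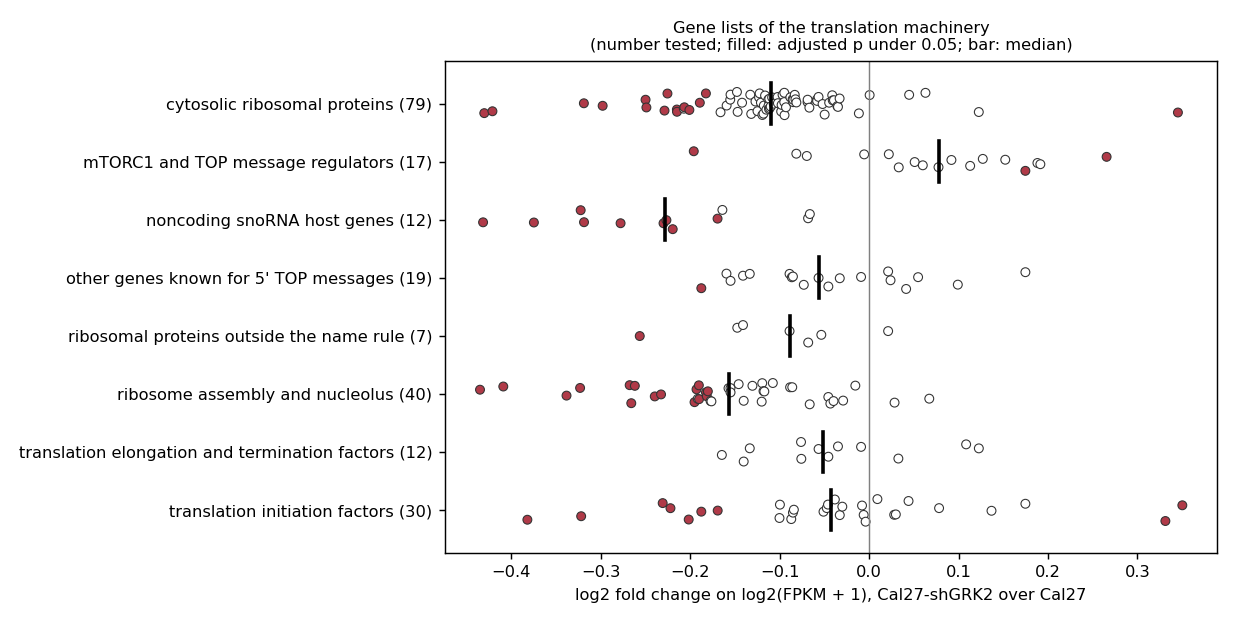
Log2 fold change on the log2(FPKM + 1) scale (Cal27-shGRK2 over Cal27, horizontal axis) of each tested gene in the ribosomal protein family and in 7 lists of the translation machinery, with the number tested in brackets, filled points for an adjusted p under 0.05 and black bars at the medians. The medians are -0.11 for ribosomal proteins, -0.16 for ribosome assembly and -0.23 for noncoding snoRNA hosts; after quantile normalization they are 0.00, -0.15 and -0.22.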

How the data were processed

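Gene values are FPKM that the authors deposited for each library, with a q-value, p-value and log2 fold change per gene in the authors' deposited table. Bowtie2 2.2.6, TopHat2 2.1.0, Cuffdiff 2.2.1 and build hg38 are named in the submitters' processing notes, and stranded library preparation in the labels' protocols. The authors' status scores and condition means in the deposited table were used only for the comparison with their calls and for 1 alternative. Identical columns were counted once. Genes averaging 1 FPKM or more entered the test, limma 3.58.1 on log2(FPKM + 1) (R 4.3.3; trend, robust, two-sided), its p-values adjusted by Benjamini-Hochberg over all 13377 genes; fold changes on this scale understate those of low genes. Coding lengths come from GENCODE 29 on the same build, start sites from RefSeq (GRCh38.p14), with 17 members lacking a window. Named genes were every member past the threshold, the 8 largest changes, the 5 most and 5 least abundant, members under the filter, stalk, 5S particle and RPS6, RPSA, RPS27 and RPS27L genes, and the largest call of each list in each direction. The members and lists were chosen with earlier results of these data known. Marker and list genes that are not in the table were not analysed here. Alternatives covered pseudocount, filter, scaling, moderation, a replicate block, each library left out, and the further Cal27-shGRK2 library implied by the authors' condition value. 1 gene of these lists is not reported here by name.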

Additional observations from a re-analysis of the deposited data

How the results depend on the processing

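Over 15 alternatives, the tested genes that are named by rule kept direction and side of the threshold in 471 comparisons, lost the call in 58, gained it in 13 and changed sign in 13. Members that fell, 14 as reported, numbered 24 with median-of-ratios scaling, 5 after quantile normalization, 9 without trend and robust moderation, and 6 to 13 with 1 library left out. The 1 member that rose was joined by another with a common FPKM total, with a common total of other genes, and with the implied further library (2 each), and 5 rose after quantile normalization. The members' median log2 fold change was 3.6e-04 after quantile normalization and -0.16 to -0.07 with 1 library left out. Quantile normalization forces equal distributions on all libraries, and members fill most of the highest ranks. It also turned RPL11 (0.028), RPL23A (0.037), RPL35 (0.075), RPL41 (0.015), RPL5 (0.0072), RPLP0 (0.036), RPS18 (0.083), RPS2 (0.039) and RPS6 (0.011) to positive log2 differences. RPS3 ranged over -0.15 to 0.035 with 1 library left out. It turned without Cal27 replicate 1 (0.0083) and under the replicate block (0.0083), which gives the same fold changes. It also turned without the shared library (0.035), where RPS18 turned too (0.013). None of the genes that turned passed in either setting, except RPL41 as reported. In the other lists 34 genes fell, but 18 with a common FPKM total, 17 without trend and 10 to 33 with 1 library left out; 4 rose, but 14 with a common FPKM total, 11 with a common total of other genes, 8 after quantile normalization, 7 under the block and 2 to 7 with 1 library left out. All genes called numbered 2600 to 4028 with 1 library left out. The cause of these shifts was not tested.

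The replicate numbers were not shown to pair the libraries: deviations of Cal27-shGRK2 replicate 2 correlated at -0.08, 0.07 and 0.02 with those of Cal27 replicates 0, 1 and 2, and which of 0 and 1 the shared library is remains unknown. Under the block 13 members fell, 1 rose and the median was -0.08, and 3960 genes were called in all. The block set the shared library as replicate 0, which left Cal27 replicate 1 alone in its block. Its fold changes are therefore those without Cal27 replicate 1, and these 2 of the 15 alternatives are not separate estimates. The median log2 difference of -0.11 rests on 2 libraries in 1 group, and 64 of the 79 tested members did not pass. Whether changes in these were missed was not tested. FPKM give no read depth, so no counting error can be attached to the values, and leaving 1 Cal27-shGRK2 library assumes that it varies like the Cal27 libraries.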

Other observations

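The table also lists 111 pseudogenes named after 47 of the members. Of these, 38 reached a mean of 1 FPKM, of which 3 fell (7.89%, against 14.6% of all genes) and 1 rose (2.63%, against 15.0%). The 2 above 100 FPKM were RPL9P9, with 687.1 and 738.4 FPKM in Cal27-shGRK2 and 710.5, 778.6 and 745.0 FPKM in Cal27, and RPS2P5, with 340.1 and 343.6 FPKM in Cal27-shGRK2 and 348.3, 402.8 and 368.9 FPKM in Cal27. Neither passed (limma, adjusted p = 0.50 and 0.18). Reads of RPL9 and RPS2 may be shared with these copies.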
